A study of Canis lupus familiaris with 18 samples.

Results

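The genes described here were 9 members of the machinery that moves chloride across the cell membrane together with sodium or potassium. They were the cation-chloride cotransporter genes SLC12A2, SLC12A4, SLC12A5, SLC12A7, SLC12A8 and SLC12A9, and the kinase genes WNK1, STK39 and OXSR1 that regulate these cotransporters. They were taken by symbol from the 29993 genes of the deposited count table. The set was chosen by the counts of SLC12A4, which were lower in French bulldogs in these same samples, so its difference between the groups is given below as a description and with no test. All 9 symbols were found, and 8 of the 9 genes passed the filter on low counts. SLC12A8 did not.

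The tissue was archived in paraffin after formalin fixation and came from high grade oligodendroglioma (HGO) of the canine forebrain, a glial tumor. Bulk RNASeq was available for 18 libraries, each labelled as 1 dog. The 11 French bulldogs were compared with a comparison group of 7 dogs, namely 4 boxers and 3 Boston terriers. The tumors were spontaneous tumors of pet dogs removed by surgery, no genetic change or experimental agent is given in the labels for either group, and no normal brain was analysed here. Age, sex and tumor site within the forebrain were not used here.

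Cation-chloride cotransporters are driven by the sodium and potassium gradients that the sodium pump maintains. SLC12A2 encodes NKCC1, which carries chloride into the cell with sodium and potassium, whereas SLC12A4 (KCC1), SLC12A5 (KCC2) and SLC12A7 (KCC4) encode potassium-chloride cotransporters, which carry chloride out. Kinases of the WNK family respond to cell chloride and volume, and they act through SPAK (encoded by STK39) and OSR1 (encoded by OXSR1), which activate NKCC1 and inhibit the potassium-chloride cotransporters by phosphorylation. In brain this balance sets the response of neurons to GABA, for which KCC2 is the main chloride exporter of mature neurons, and it takes part in the volume control of glial cells.

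Each dog had between 8212452 and 13169880 counts in all, and 3 counts, taken as the smallest level that this depth could show, corresponded to 0.223 to 0.351 CPM (counts per 1000000 counts of the library). Levels below are CPM after TMM normalization, a correction for differences in library composition. Exon lengths were not used here, so levels were compared between dogs and never between genes. French bulldog 6 stood apart from the other dogs and went against its tissue label. Its summed level over the 6 oligodendrocyte lineage markers was 43.4 CPM, against 959 to 6784 CPM in the other French bulldogs and 1471 to 2994 CPM in the comparison group. It had no count of OLIG2 or NKX2-2, and its summed level over the 8 macrophage and microglia markers was 5987 CPM, against 43.8 to 284 CPM and 78.7 to 150 CPM in those groups. Results that rest on it are given with and without it. French bulldogs 2 and 8 carry 1 case number in their labels, and their log2 CPM correlated over genes with r = 0.981, above the r = 0.946 of the next closest pair, so they may come from 1 dog. Library numbers ran from S1 to S12 in French bulldogs, from S18 to S21 in 4 comparison dogs and from S1 to S3 again in the other 3. The labels do not say which numbers were prepared or sequenced together, and whether a preparation set differs between the breeds was not tested. In bulk tumor RNA, fewer cells of a type and less RNA per cell cannot be told apart either.

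SLC12A4, which encodes KCC1, the potassium-chloride cotransporter found in most cell types, ranged from 41.5 to 89.6 CPM in the 11 French bulldogs, with a median of 63.9 CPM. In the 7 dogs of the comparison group it ranged from 81.2 to 121 CPM, with a median of 101 CPM. The boxers were at 101, 102, 90.8 and 121 CPM, and the Boston terriers were at 119, 88.7 and 81.2 CPM. The means were 63.1 ± 14.8 CPM (SD, n = 11) and 100.5 ± 15.1 CPM (SD, n = 7), and the fitted log2 fold change was -0.67 (SE 0.15), so the level in French bulldogs was 62.8% of that in the comparison group. All 11 French bulldogs lay below the median of the comparison group, and 9 of them lay below every dog of it. The groups overlapped through French bulldogs 4 and 5, at 84.4 and 89.6 CPM, and the Boston terriers at 81.2 and 88.7 CPM. Of all genes tested, 0.661% had at least 9 of the 11 French bulldogs below every comparison dog, and 0.0485% had all of them below. Nothing is read from these shares, because SLC12A4 was chosen for this difference.

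**Figure D1:**
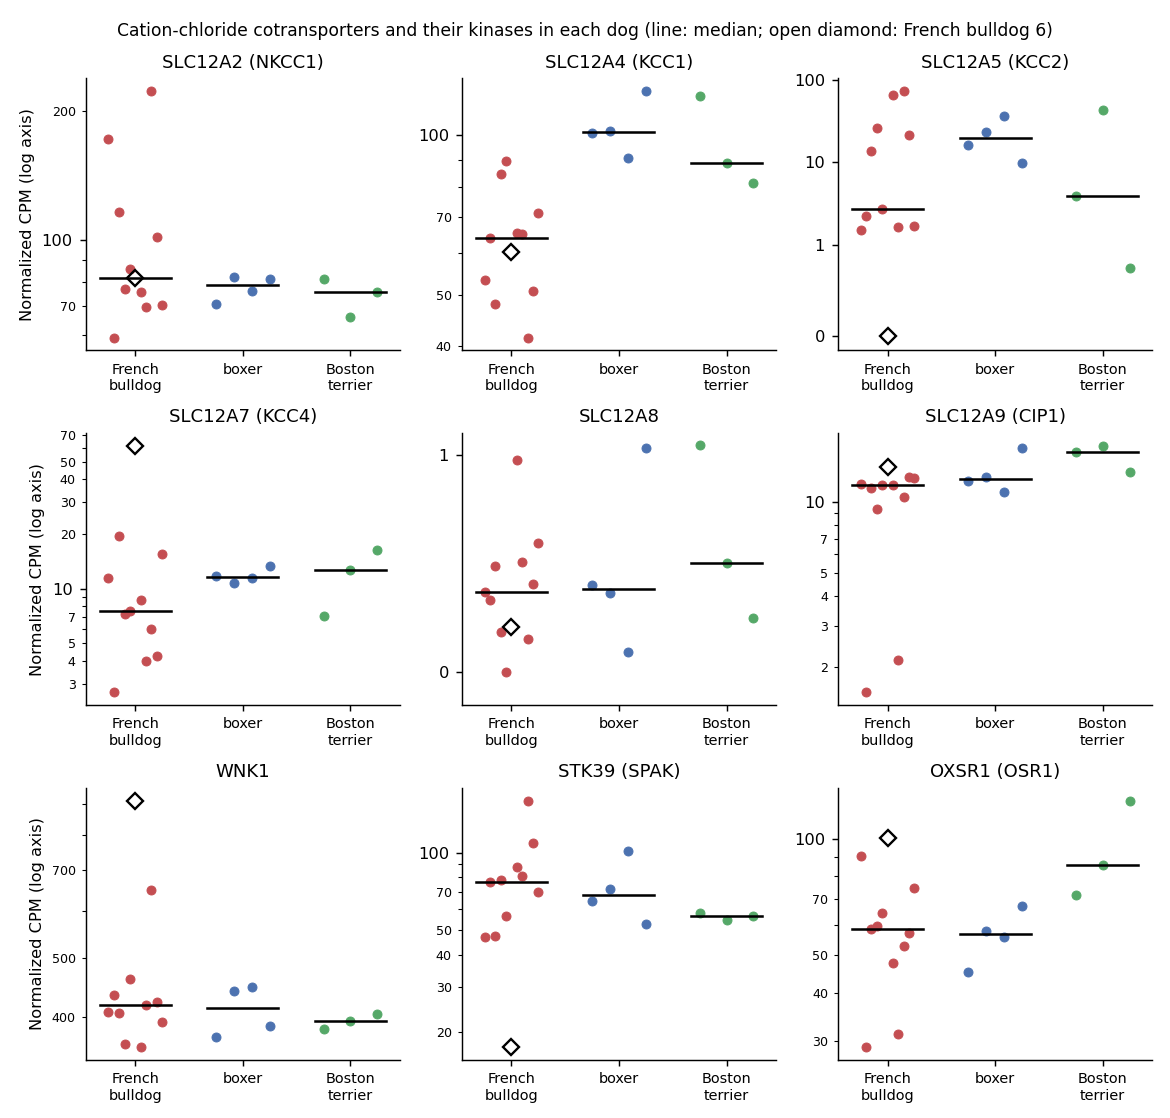
Normalized CPM of the 9 genes in each of the 18 dogs, by breed, on a log axis (linear below 1 CPM for SLC12A5 and SLC12A8). Each point is a dog, the line is the breed's median, and the open diamond is French bulldog 6, which was highest for SLC12A7 (61.4 CPM) and WNK1 (913 CPM), lowest for STK39 (17.4 CPM) and at 0 for SLC12A5.

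The values of SLC12A4 in subsets of the dogs are a description only, since the gene was chosen for this difference, and they add no independent support. Its log2 fold change lay between -0.73 and -0.62 when each of the 18 dogs was left out in turn, and it was -0.64 without French bulldog 6 and -0.67 with French bulldogs 2 and 8 summed. It was -0.72 (SE 0.19) against the boxers alone and -0.60 (SE 0.21) against the Boston terriers alone. Against the comparison dogs numbered S18 to S21 and S1 to S3 it was -0.71 (SE 0.19) and -0.62 (SE 0.21). These subsets share the French bulldogs and are not independent of each other. Depth was not limiting for this gene, which had between 492 and 1260 counts per dog.

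The spread of SLC12A4 within groups is given as part of the same description, since a small spread makes a difference of this size easier to call. Its biological coefficient of variation, the spread between dogs beyond counting error in the fitted model, was 26.2%, against a median of 45.5% over all genes tested. In log2 CPM its SD was 0.34 in French bulldogs against 0.21 in the comparison group. Its correlations with the cell type scores described below, after centring within groups (n = 18), are likewise given as values only. Its small spread was part of what chose it, so neither a link nor the lack of one is read from them. Spearman's rho was -0.20 for neuron, 0.31 for oligodendrocyte lineage and -0.17 for macrophage and microglia markers. Pearson's r was -0.20, 0.13 and -0.16, and without the 2 dogs farthest from the median score it was -0.46, 0.06 and -0.27.

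None of the other members differed between French bulldogs and the comparison group after adjustment over all genes. With edgeR's quasi-likelihood F test, 0 of the 7 other members that passed the filter had an adjusted p under 0.05, and 0 had an unadjusted p under 0.05. The background was 0.00606% of 16495 genes tested with an adjusted p under 0.05 and 10.6% with an unadjusted p under 0.05. DESeq2's Wald test, which kept SLC12A8, called 0 of 8 (adjusted, background 0.213%) and 0 of 8 (unadjusted, background 9.62%), and limma-voom called 0 of 7 by either p (background 0.0121% and 9.31%). The p-values measure the spread between these tumor samples. The estimates were above 0 for 5 of the 7 genes and below 0 for 2, against 53.7% above 0 over all genes tested.

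**Figure D2:**
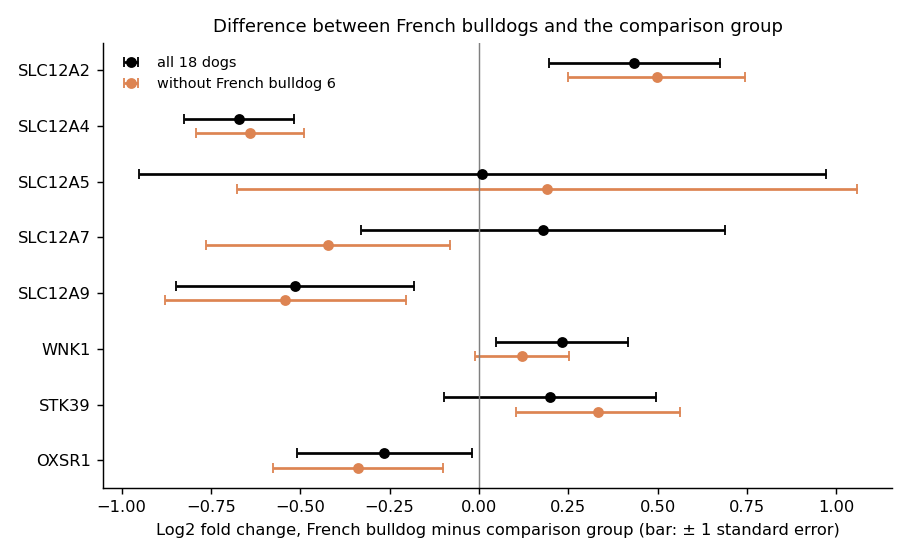
Log2 fold change of French bulldogs against the comparison group, with bars of 1 standard error, for the 8 members that passed the filter, with all 18 dogs (black) and without French bulldog 6 (orange). SLC12A4 was at -0.67 and -0.64, and SLC12A7 moved from 0.18 to -0.42.

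SLC12A2, the gene of the chloride importer NKCC1, ranged from 59.2 to 223 CPM in French bulldogs with a median of 81.4 CPM, and from 66.0 to 82.2 CPM in the comparison group with a median of 76.1 CPM. The medians lay close together, and the French bulldogs spread far more widely. The coefficient of variation was 49.2% in French bulldogs against 7.92% in the comparison group, a contrast in spread that was not tested. French bulldogs 9 and 1, at 223 and 172 CPM, and French bulldogs 3 and 10, at 116 and 102 CPM, were the highest of all dogs. The log2 fold change was 0.43 (SE 0.24, edgeR, adjusted p = 0.518, unadjusted p = 0.0860). It was 0.26 without French bulldog 9 and 0.33 without French bulldog 1.

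The oligodendrocyte lineage score, in which each marker's log2 CPM was turned into a z-score and then averaged, was -0.45 in French bulldog 9 and -0.16 in French bulldog 1, the lowest of all dogs after French bulldog 6. SLC12A2 correlated with it with r = -0.11 and rho = -0.39 over the 18 dogs (permutation test within groups, adjusted p = 0.771 and 0.373), and with r = -0.72 and rho = -0.41 without French bulldog 6 (n = 17, permutation adjusted p = 0.0841 and 0.444). None of these passed. Without the 2 dogs farthest from the median score, r was -0.545 and rho was -0.18. In the 7 comparison dogs alone they were 0.38 and 0.25. Of the 7 scores computed, the one for myelin markers (genes of the oligodendrocyte sheath) was singled out after its values were seen. It was highest in French bulldogs 9, 1 and 3, the highest for SLC12A2, at 1.88, 0.91 and 0.74. This score was built in the same way from the 4 of 6 listed markers that could be tested. The order did not carry on below them, since French bulldog 11 scored 0.70 with 70.6 CPM of SLC12A2. The part of myelin in the level of SLC12A2 was not tested.

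SLC12A5, the gene of the neuronal chloride exporter KCC2, varied more between dogs than any other member that passed the filter. It ranged from 0 to 73.6 CPM in French bulldogs with a median of 2.69 CPM, and from 0.745 to 42.6 CPM in the comparison group with a median of 16.2 CPM. French bulldogs 7 and 9 were highest, at 65.3 and 73.6 CPM, and French bulldog 6 had 0 counts, which allows a level of up to 0.312 CPM. The groups overlapped almost throughout, and the log2 fold change was 0.01 (SE 0.96, edgeR, adjusted p = 0.998) with all dogs and 0.19 (SE 0.87, adjusted p = 0.962) without French bulldog 6. Differences of several fold between the breeds would therefore not have been detectable for this gene.

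The level of SLC12A5 moved with the neuron markers of the sample. The neuron score used 10 genes, among them RBFOX3, SNAP25 and SYT1. After centring within groups, log2 CPM of SLC12A5 correlated with it with Pearson's r = 0.98 and Spearman's rho = 0.95 over 18 dogs (permutation test within groups, two-sided, p = 1e-05 for both, the smallest that 100000 permutations can give, adjusted p = 0.00027 over 27 relations). Without the 2 dogs farthest from the median score, r was 0.98 and rho was 0.94, and without French bulldogs 6 and 8 they were 0.98 and 0.97. Within each group alone the rho was 0.91 in the 11 French bulldogs against 0.96 in the 7 comparison dogs. The summed level of the neuron markers was 6.14 CPM in French bulldog 6, 77.3 to 1971 CPM in the other French bulldogs and 98.5 to 1571 CPM in the comparison group.

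**Figure D3:**
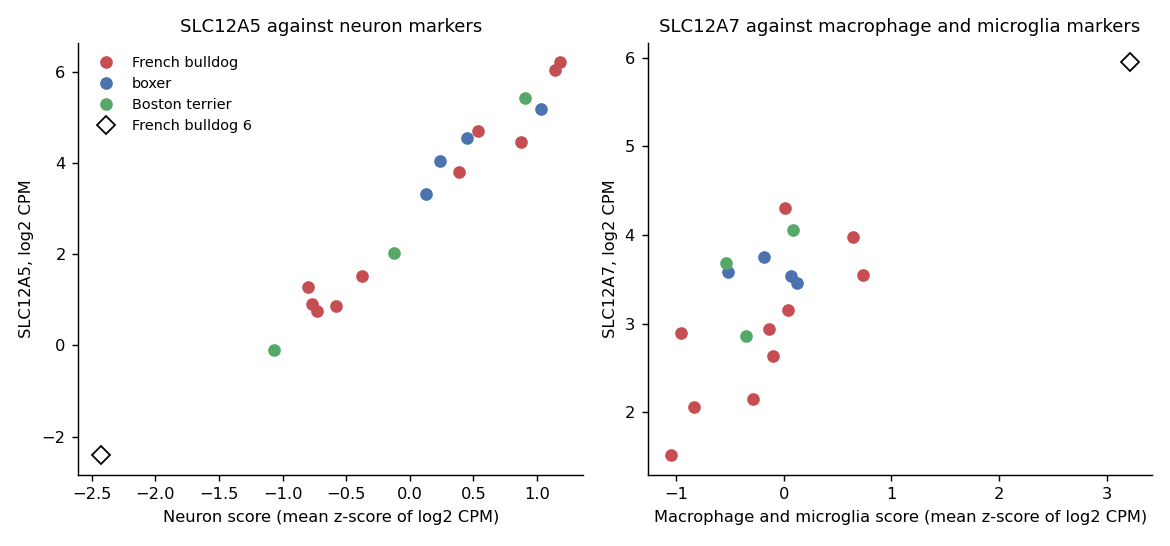
Log2 CPM of SLC12A5 against the neuron score (left) and of SLC12A7 against the macrophage and microglia score (right), each score averaging the z-scores of its markers and each point being a dog. Values are shown before centring within groups. SLC12A5 followed its score in both groups (rho 0.91 and 0.96), whereas the SLC12A7 relation was drawn out by French bulldog 6 at the upper right.

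The ratio of the importer gene SLC12A2 to the exporter gene SLC12A5 was taken in each dog because it does not depend on library scaling. The log2 ratio of counts, with 0.5 added to each, was 4.23 ± 2.94 (SD, n = 11) in French bulldogs against 2.81 ± 2.08 (SD, n = 7) in the comparison group. It ran from 0.21 in French bulldog 7 to 10.61 in French bulldog 6, and from 0.63 to 6.59 in the comparison group. French bulldog 6 had no count of SLC12A5, so its value was set by the added 0.5. Taken against a floor of 3 counts, its log2 ratio was at least 8.03, and with it at that bound the French bulldog mean was 3.99 and the difference 1.18. The difference of 1.42 did not pass an exact permutation test (two-sided, all 31824 splits, p = 0.290), and it was 0.78 without French bulldog 6 (exact p = 0.461). In French bulldogs the SD of log2 CPM was 2.67 for SLC12A5 and 0.59 for SLC12A2, so most of the spread in the ratio came from the exporter gene.

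SLC12A7, the KCC4 gene, ranged from 2.68 to 61.4 CPM in French bulldogs with a median of 7.49 CPM, and from 7.06 to 16.4 CPM in the comparison group with a median of 11.8 CPM. French bulldog 6 held the highest level, and the next highest French bulldog was at 19.5 CPM. Of the French bulldogs, 4 lay below every comparison dog and 2 lay above. The log2 fold change was 0.18 (SE 0.51, edgeR, adjusted p = 0.932) with all dogs and -0.42 (SE 0.34, adjusted p = 0.677) without French bulldog 6, so the edgeR estimate turned direction without that library. The direction also depended on the method, since limma-voom gave -0.38 with all dogs.

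SLC12A7 correlated with the macrophage and microglia score over the 18 dogs (r = 0.87, rho = 0.74, permutation test, adjusted p = 0.00743 and 0.0228). Without French bulldog 6 the values were r = 0.69 and rho = 0.60, and neither passed (permutation test, n = 17, adjusted p = 0.0841 and 0.209). Without the 2 dogs farthest from the median score r was 0.60. The rho was 0.82 in the other 10 French bulldogs and -0.04 in the 7 comparison dogs, a contrast that was not tested.

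SLC12A8 and SLC12A9 are the members whose transport function is least settled, and the SLC12A9 protein is also known as cotransporter-interacting protein. SLC12A8 was near the limit of detection throughout, with 0 to 12 counts per dog and at most 1.13 CPM, which leaves little power at this depth. Without the filter its log2 fold change was -0.45 (SE 0.57, edgeR, adjusted p = 0.760). SLC12A9 ranged from 1.56 to 14.1 CPM in French bulldogs with a median of 11.8 CPM, and from 11.1 to 17.3 CPM in the comparison group with a median of 13.4 CPM. The low end was set by French bulldogs 2 and 8, at 1.56 and 2.14 CPM (14 and 21 counts), the pair with 1 case number. The other 9 French bulldogs lay between 9.32 and 14.1 CPM. The log2 fold change was -0.51 (SE 0.33, edgeR, adjusted p = 0.582), and it was -0.40 (adjusted p = 0.638) with French bulldogs 2 and 8 summed.

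WNK1, the kinase that stands at the head of the pathway, was the steadiest of the 3 kinases. It ranged from 356 to 913 CPM in French bulldogs with a median of 418 CPM, and from 370 to 449 CPM in the comparison group with a median of 394 CPM. French bulldogs 6 and 9 stood out at 913 and 649 CPM, and the other 9 lay between 356 and 463 CPM. The log2 fold change was 0.23 (SE 0.18, edgeR, adjusted p = 0.656), and 0.12 (SE 0.13, adjusted p = 0.774) without French bulldog 6.

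STK39 and OXSR1 encode the closely related kinases SPAK and OSR1, and the dogs at the extremes differed between them. STK39 ranged from 17.4 to 159 CPM in French bulldogs with a median of 76.6 CPM, and from 52.8 to 101 CPM in the comparison group with a median of 57.9 CPM. French bulldog 6 was lowest and French bulldog 9 highest. OXSR1 ranged from 28.9 to 100.4 CPM in French bulldogs with a median of 58.4 CPM, and from 45.2 to 126 CPM in the comparison group with a median of 66.9 CPM. French bulldogs 2 and 8 were lowest for OXSR1, at 28.9 and 31.2 CPM, and French bulldog 6 was the highest French bulldog.

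The log2 fold change was 0.20 (SE 0.30, edgeR, adjusted p = 0.848) for STK39 and -0.26 (SE 0.25, adjusted p = 0.717) for OXSR1. Single dogs moved both estimates, which were 0.33 and -0.34 without French bulldog 6. STK39 was 0.03 without French bulldog 9 and 0.37 without the highest boxer, and OXSR1 was -0.08 without the highest Boston terrier. The ratio of STK39 to OXSR1 counts ran from 0.173 in French bulldog 6 to 3.02 in French bulldog 9, and from 0.449 to 1.82 in the comparison group. French bulldogs 2 and 8 also had high ratios, at 2.65 and 2.60. STK39 correlated with the neuron score (r = 0.77, permutation test, adjusted p = 0.00882, rho = 0.57, adjusted p = 0.188), but r was 0.58 without French bulldog 6 (n = 17, permutation adjusted p = 0.0941) and 0.60 without the 2 dogs farthest from the median score. OXSR1 correlated with the macrophage and microglia score (r = 0.65, permutation test, adjusted p = 0.0154, rho = 0.49, adjusted p = 0.238), and r was 0.63 without French bulldog 6 (n = 17, permutation adjusted p = 0.0841) and 0.52 without the 2 farthest dogs.

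Of the 27 relations between 9 members and 3 scores, 5 passed by Pearson's r and 2 by Spearman's rho over all 18 dogs. Those of SLC12A4 were counted in the adjustment only. The remaining one of the 5 was SLC12A7 with the oligodendrocyte lineage score (r = -0.81, permutation test, adjusted p = 0.0154, rho = -0.55, adjusted p = 0.188), with r = -0.58 (n = 17, permutation adjusted p = 0.162) without French bulldog 6 and r = -0.80 (permutation adjusted p = 0.0540) without the 2 farthest dogs. Without French bulldog 6, only the relation of SLC12A5 with the neuron score passed by either measure. Many genes tracked these scores, and the share of the 16495 genes tested whose r was at least as far from 0 is given here as a description. It was 0.0485% (8 genes) for SLC12A5 with the neuron score, SLC12A5 itself and any neuron markers included. It was 4.92% for SLC12A7 with the macrophage and microglia score, 10.4% for SLC12A7 with the oligodendrocyte lineage score, 8.02% for STK39 with the neuron score and 24.0% for OXSR1 with the macrophage and microglia score. Without French bulldog 6 these shares were 0.0667%, 5.98%, 21.1%, 18.4% and 10.2%. By rho over the 18 dogs they were 0.734%, 3.16%, 11.3%, 19.2% and 21.2%. Relations as strong as those of SLC12A7 with the oligodendrocyte lineage score, STK39 and OXSR1 were thus common among all genes.

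The boxers and Boston terriers were then compared with each other, a contrast that the choice of the members other than SLC12A4 did not use. In a fit of 3 breeds over all 18 dogs, 0 of 17934 genes had an adjusted p under 0.05 (0.0%, edgeR), and 2.12% had an unadjusted p under 0.05. DESeq2 also called 0 (2.92% unadjusted). Of the 7 other members tested, 0 passed by the adjusted and 0 by the unadjusted p with edgeR, and 0 of 8 passed by either with DESeq2. SLC12A4 was at 104 ± 12.8 CPM (SD, n = 4) in boxers and 96.2 ± 19.7 CPM (SD, n = 3) in Boston terriers, with a log2 fold change of 0.11 (SE 0.25). It carries no test here, since its small spread among these dogs was part of what chose it.

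OXSR1 gave the largest breed contrast relative to its error among the members, and 1 dog carried much of it. It was at 45.2, 57.7, 55.8 and 66.9 CPM in the boxers and at 71.6, 85.5 and 126 CPM in the Boston terriers. The breeds did not overlap, as was the case with boxers lower for 3.54% of genes tested. The log2 fold change was -0.75 (SE 0.36, edgeR, unadjusted p = 0.0506, adjusted p = 1.0), and -0.56 (SE 0.25, adjusted p = 0.995) with the set of library numbers (S18 to S21 or S1 to S3) as a covariate. The unadjusted p was 0.0125 with the 7 dogs fitted alone and 0.0329 without French bulldog 6, and neither passed after adjustment over all genes (adjusted p = 0.795 and 1.0). With each of the 7 dogs left out the log2 fold change ran from -0.91 to -0.48 and the unadjusted p from 0.0345 to 0.240. The -0.48 and the 0.240 were without the Boston terrier at 126 CPM. French bulldogs ranged from 28.9 to 100 CPM, or to 90.2 CPM without French bulldog 6, and their log2 fold change in OXSR1 was 0.10 (SE 0.28) against boxers and -0.63 (SE 0.33) against Boston terriers.

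Other genes of chloride, potassium and volume control were examined in 6 lists, and 0 genes in any list had an adjusted p under 0.05 with edgeR or DESeq2. Among regulators of the WNK, SPAK and OSR1 kinases, 11 of 12 genes were tested. Of these, 8 had estimates above 0 and 3 below, and the median log2 fold change was 0.33 against 0.04 over all genes. The list's median was 0.25 without French bulldog 6. By the unadjusted p, 2 were higher in French bulldogs against a background of 7.02%. CUL3, the scaffold of the ubiquitin ligase that degrades WNK kinases, was at 76.9 ± 12.0 CPM (SD, n = 11) and 60.9 ± 6.19 CPM (SD, n = 7), with a log2 fold change of 0.34 (SE 0.12, edgeR, adjusted p = 0.433). PPP1CB, a catalytic subunit of protein phosphatase type 1, was at 269 ± 86.8 CPM (SD, n = 11) and 182 ± 46.6 CPM (SD, n = 7), with a log2 fold change of 0.56 (SE 0.21, edgeR, adjusted p = 0.433). The extremes of the list were CIB1 at 0.72 (adjusted p = 0.560) and KLHL3, the substrate adaptor of the same ligase, at -0.45 (adjusted p = 0.610). Without French bulldog 6, CIB1 was at 0.32 and KLHL3 at -0.30.

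**Figure D4:**
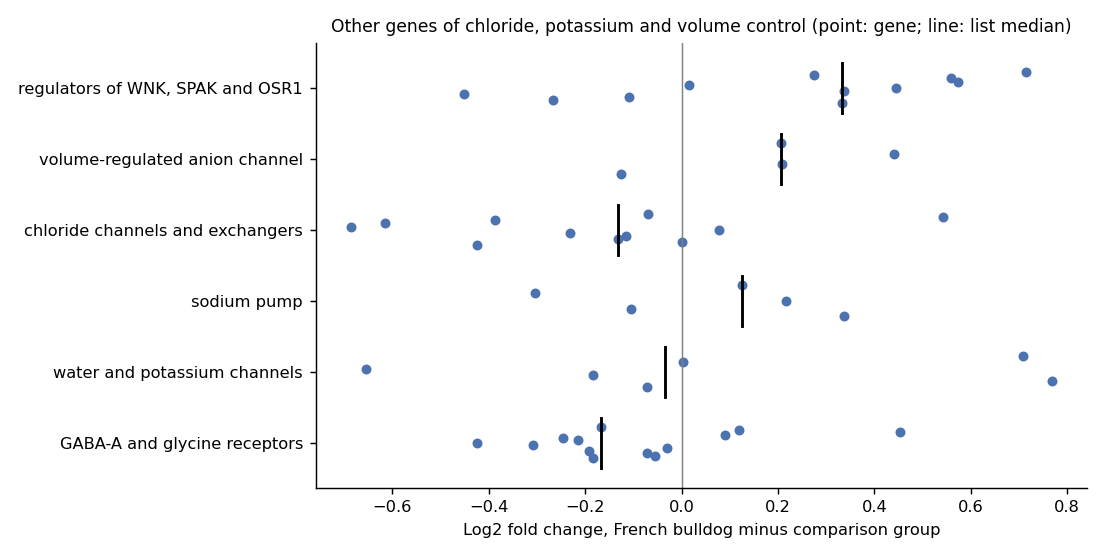
Log2 fold change of French bulldogs against the comparison group for the tested genes of 6 lists, each point a gene and each line the list's median. Medians ran from -0.17 for GABA-A and glycine receptors to 0.33 for regulators of WNK, SPAK and OSR1, and 0 of these genes passed the adjusted threshold. Without French bulldog 6, which is included in the plot, these medians were -0.01 and 0.25. The lowest was then -0.15, for water and potassium channels.

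The remaining lists had 0 genes with an unadjusted p under 0.05 in the same test, against the background of 10.6%. Without French bulldog 6 they had 1, AQP9, against a background of 10.8%. Among the LRRC8 subunits of the volume-regulated anion channel, which releases chloride when cells swell, 4 of 5 were tested with a median log2 fold change of 0.21, from LRRC8A, the obligatory subunit, at -0.13 to LRRC8C at 0.44 (-0.0013 and 0.17 without French bulldog 6). The chloride channels and exchangers (11 of 12 tested) had a median of -0.13, with 3 estimates above 0 and 8 below, and the lowest was the anion exchanger gene SLC4A3 at -0.69. Without French bulldog 6 the median was -0.10, 4 estimates lay above 0 and 7 below, and SLC4A3 was at -0.52. The sodium pump subunits (5 of 6 tested) had a median of 0.13, and the lowest was ATP1B2 at -0.30. Without French bulldog 6 these were 0.066 and -0.14.

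Water and potassium channels (6 of 7 tested) had a median of -0.03 (-0.15 without French bulldog 6). Their extremes were KCNJ16, an inward rectifier of glial cells, at -0.65 (-0.51 without French bulldog 6) and AQP9, an aquaglyceroporin, at 0.77. AQP9 was at 72.3 CPM in French bulldog 6, and its log2 fold change was -2.29 (edgeR, unadjusted p = 0.0162, adjusted p = 0.407) without that dog. It was also uneven in the comparison group, at 4.28 ± 6.79 CPM (SD, n = 7), an SD above the mean. Its counts ran from 0 to 694 over all dogs. GABA-A and glycine receptor subunits (13 of 14 tested), the channels whose effect depends on the chloride gradient, had a median of -0.17, with 3 estimates above 0 and 10 below. The lowest was GABRB2 at -0.42 and the highest was GABRD at 0.45. Without French bulldog 6, 6 estimates lay above 0 and 7 below, the median was -0.01, GABRB2 was at -0.26 and GABRD at 0.63.

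The genes whose log2 CPM, centred within groups, ordered the 18 dogs most like a given member were sought among 11576 genes with a symbol, as a description. For SLC12A4 they were RC3H1 (Spearman's rho 0.83), HNRNPU (0.79) and TAF4B (0.78), which ranked 1, 4 and 6 without French bulldog 6. For SLC12A2 they were OXTR (0.83), SLC44A1 (0.82) and FAM177A1 (0.81), which ranked 8, 1 and 7 without French bulldog 6 (0.92 for SLC44A1). For SLC12A5 they were KCNC2 (0.98), HPCA (0.98) and SYN1 (0.97), of which KCNC2 is a neuronal potassium channel gene, HPCA encodes a neuronal calcium sensor and SYN1, which encodes a synaptic vesicle protein, is itself in the neuron list. They ranked 2, 15 and 16 without French bulldog 6, with rho between 0.97 and 0.98. The points are 18 dogs whose libraries differ in composition and depth, and these values carry no test.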

How the data were processed

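Bulk RNASeq of HGO tissue was deposited for 18 libraries, grouped by the breed in their labels. The authors prepared stranded, ribosomal RNA-depleted libraries, trimmed paired-end reads (Trimmomatic 0.33), mapped them to canFam6 (HISAT2 2.1.0) and deposited raw counts per gene from featureCounts, without normalization. Whether featureCounts used strand, and how it treated reads with several matches, is not given in the sources used here. By RefSeq annotation of another assembly (UU_Cfam_GSD_1.0), 5 of the 9 members (SLC12A2, SLC12A8, WNK1, STK39 and OXSR1) overlap other genes, so part of their counts is uncertain.

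Members and gene lists were chosen with earlier results of these data known. The main comparison, of 11 French bulldogs and 7 other dogs, used TMM normalization, filterByExpr and the robust quasi-likelihood F test of edgeR 4.0.16 (R 4.3.3), two-sided and with no covariate. P-values were adjusted by Benjamini-Hochberg over all genes tested, with a threshold of 0.05. The standard error (SE) was the absolute log2 fold change over the square root of F. Boxers and Boston terriers were compared in a fit of 3 breeds. Log2 CPM used a prior count of 2. Correlations were tested by 100000 permutations within groups (scipy 1.17.1). Reads carried no molecular identifiers as far as stated, so the limit of 3 counts covers counting error only.

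Named genes were the 9 members, the tested gene with the largest and smallest log2 fold change of each list together with any listed gene past the threshold, and the 3 genes most like SLC12A4, SLC12A2 and SLC12A5. CUL3 and PPP1CB were named after their values were seen, and results for some genes under this rule are not reported here. Alternatives were DESeq2 1.42.0, limma-voom (limma 3.58.1), other normalizations and filters, subsets of the comparison group, a replicate block and each dog left out. The code was tested on simulated data. Figures used Python 3.11.15 and matplotlib 3.10.9.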

Additional observations from a re-analysis of the deposited data

How the results depend on the processing

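The members other than SLC12A4 had no adjusted p under 0.05 in any of the 33 alternatives for French bulldogs against the comparison group, nor in the 13 for boxers against Boston terriers. SLC12A2, SLC12A9 and WNK1 kept the direction of their French bulldog log2 fold change in all 33. SLC12A4 did too, but its direction chose it and is no sign of stability. The number of genes called in the whole table, 1, was 0 with at least 10 counts in every dog, with French bulldogs 2 and 8 summed, and against boxers or either set of library numbers (S18 to S21, S1 to S3) alone. It was 2 with limma-voom and with upper quartile normalization (limma-voom without French bulldog 6 also gave 2), 58 with DESeq2 (76 without French bulldog 6), and 0 to 7 with each dog left out, the 7 being without French bulldog 9. The relations of members with cell type scores that passed by Spearman's rho went from 2 to 1 without French bulldog 6, without the 2 farthest dogs and without French bulldogs 6 and 8.

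The following log2 fold changes turned direction, and none of them passed the threshold under any alternative. SLC12A5 was -0.98 with limma-voom (-0.33 without French bulldog 6), -0.16 against boxers, -0.059 against numbers S18 to S21, and -0.48 to 0.35 with each dog left out. SLC12A7 was -0.38 with limma-voom, -0.040 against numbers S1 to S3, and, without French bulldog 6, -0.42 with edgeR, -0.43 with DESeq2 and -0.61 with limma-voom (-0.42 to 0.29 with each dog left out). OXSR1 was 0.10 against boxers and 0.071 against numbers S18 to S21. For boxers against Boston terriers, SLC12A7 was 0.28 in the 7 dogs fitted alone with these sets as a covariate. Leaving out, in turn, each of the 7 dogs and French bulldog 6 gave -0.024 to 0.13 for SLC12A2, -0.0026 to 0.28 for SLC12A4, -0.12 to 3.21 for SLC12A5, -0.30 to 0.26 for SLC12A7 and -0.0034 to 0.11 for WNK1. The rho of SLC12A7 with the macrophage and microglia score was -0.036 in the comparison group alone. The cause was not tested.

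The replicate numbers do not pair the dogs: deviations of same-numbered dogs correlated between -0.50 and 0.21 over 7 pairs. With a replicate block over these 14 dogs, 0 genes were called (5 without it), and the log2 fold change was -0.61 for SLC12A4, -1.39 for SLC12A5, -0.13 for SLC12A7 and -0.27 for STK39. Unblocked on the same dogs SLC12A5 was -0.25, SLC12A7 0.51 and STK39 -0.16. The unblocked fit, the DESeq2 and limma-voom fits without French bulldog 6 and the correlations without French bulldogs 6 and 8 were chosen after seeing the data. Depth limits SLC12A8 in all dogs and SLC12A9 in French bulldogs 2 and 8. It also limits SLC12A5 in French bulldogs 1, 2, 5, 6, 8 and 11 (0 to 23 counts) and in Boston terrier 7 (9 counts). SLC12A7 was at 24 counts in French bulldog 2.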
